A study of Mus musculus with 2 samples.

Results

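The genes described here are 10 effectors and regulators of alternative activation, the macrophage state driven by interleukin-4. They were compared between peritoneal macrophages exposed to CSF1 and untreated cells. The 10 genes are Chil3, Retnla, Ccl24, F13a1, Mrc1, Mgl2, Clec10a, Il4ra, Stat6 and Irf4, out of 18194 genes with at least 1 probe set of their own on the array. Members were all probe sets annotated to exactly 1 of these symbols, which gave 14 of the 45101 probe sets. CSF1 (macrophage colony-stimulating factor) is a growth factor that keeps macrophages alive and dividing through its receptor, Csf1r.

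The CSF1 cells received 100 ng/ml CSF1 for 12 h, and the control cells were left without CSF1 for the same 12 h. Both came from male wild-type C57BL6 mice aged 8 weeks, injected with 0.2 ml of 10% thioglycolate medium, an irritant that draws inflammatory macrophages into the peritoneal cavity. The cavity was washed out 1 week later and the cells were grown to 80% confluence in medium with serum. Lavage cells other than macrophages may have remained. RNA of 1 CSF1 sample and of 1 control sample was each measured on an Affymetrix Mouse Genome 430 2.0 array. Whether the samples shared animals, and how many animals were pooled, is not stated in the labels. With 1 array per group there is no replicate check and no test between the groups, so every difference below describes these 2 arrays.

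Alternative activation starts when interleukin-4 or interleukin-13 binds a receptor built around the chain encoded by Il4ra. Janus kinases at the receptor phosphorylate the transcription factor Stat6, which enters the nucleus and induces a set of effector genes. In mice these effectors include the chitinase-like protein Chil3 (Ym1), the resistin-like protein Retnla (Fizz1), the chemokine Ccl24 and the C-type lectins Mrc1, Mgl2 and Clec10a, while Irf4 is a transcription factor of the same programme.

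The promoters of 5 members are shown because 3 of them belong to soluble effectors and 1 to Irf4, whose signals were lower on the CSF1 array, and 1 belongs to Mrc1, whose signal was not. Each window holds 300 bases, from 250 before to 50 after the start of a RefSeq transcript in GRCm38.p6, read 5′ to 3′ on the gene's strand. Windows were listed for 8 of the 10 members, all but Ccl24 and Clec10a. There were 9 windows in all because F13a1 has a pair of starts. Capitals mark matches, on either strand, to the general STAT-type motif TTCNNNGAA, the STAT6-type motif, which is the same with 1 more N in the middle, or GAGGAA, a core recognised by the macrophage transcription factor encoded by Spi1. The windows are chr3:106167515-106167814 on the minus strand for Chil3, chr16:48842359-48842658 on the plus strand for Retnla, chr13:37050195-37050494 on the minus strand for F13a1, chr13:30748983-30749282 on the plus strand for Irf4 and chr2:14229164-14229463 on the plus strand for Mrc1.
Chil3: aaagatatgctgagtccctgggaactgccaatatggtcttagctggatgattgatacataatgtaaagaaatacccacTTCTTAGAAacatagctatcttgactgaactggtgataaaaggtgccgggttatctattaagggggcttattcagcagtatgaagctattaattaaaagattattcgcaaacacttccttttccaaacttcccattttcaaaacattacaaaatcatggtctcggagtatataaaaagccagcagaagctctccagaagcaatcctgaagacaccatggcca
Retnla: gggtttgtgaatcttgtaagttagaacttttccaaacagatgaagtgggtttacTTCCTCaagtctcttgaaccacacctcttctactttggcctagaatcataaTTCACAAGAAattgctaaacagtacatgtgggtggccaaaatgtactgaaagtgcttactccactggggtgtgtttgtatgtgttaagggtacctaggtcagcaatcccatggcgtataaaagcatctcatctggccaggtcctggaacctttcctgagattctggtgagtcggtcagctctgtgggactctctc
F13a1: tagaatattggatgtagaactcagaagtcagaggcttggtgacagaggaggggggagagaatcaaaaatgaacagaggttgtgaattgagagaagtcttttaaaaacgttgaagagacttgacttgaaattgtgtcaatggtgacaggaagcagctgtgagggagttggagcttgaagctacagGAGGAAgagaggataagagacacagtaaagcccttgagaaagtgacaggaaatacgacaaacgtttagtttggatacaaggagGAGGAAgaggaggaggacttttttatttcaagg
Irf4: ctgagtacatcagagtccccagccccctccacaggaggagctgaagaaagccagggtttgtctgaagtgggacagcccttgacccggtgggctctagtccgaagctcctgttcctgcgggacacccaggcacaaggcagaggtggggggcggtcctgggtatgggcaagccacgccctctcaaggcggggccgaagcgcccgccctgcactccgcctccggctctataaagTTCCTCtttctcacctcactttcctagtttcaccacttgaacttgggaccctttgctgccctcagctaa
Mrc1: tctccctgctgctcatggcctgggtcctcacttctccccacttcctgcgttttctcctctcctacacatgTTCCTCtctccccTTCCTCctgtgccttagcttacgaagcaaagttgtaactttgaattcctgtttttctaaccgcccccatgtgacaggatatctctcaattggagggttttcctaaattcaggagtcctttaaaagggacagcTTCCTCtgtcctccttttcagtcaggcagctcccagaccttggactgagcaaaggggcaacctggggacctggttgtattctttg

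The STAT6-type motif was found in 1 of the 9 member windows, that of Retnla, as TTCACAAGAA with its first base 145 bases before the start. It occurred in 6.95% of all 32851 promoter windows of the same length. The STAT-type motif was found once, in the window of Chil3, as TTCTTAGAA with its first base 172 bases before the start, and it occurred in 8.30% of all windows. These motifs differ in spacing, so no match counts under both. GAGGAA or its complement lay in 7 of the 9 windows, those of Retnla, F13a1 (both starts), Mrc1, Mgl2, Stat6 and Irf4, and in 28.3% of all windows. It was thus present in the windows of some genes with lower signals (F13a1, Retnla and Irf4) and in that of Mrc1. It was absent from the windows of Chil3 and Il4ra, and Ccl24 had no window. A match is a run of letters and does not show that a factor bound there.

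Values are signals on the authors' linear intensity scale, in arbitrary units, and each log2 ratio is CSF1 over control. Background was taken as 155 units, which 90% of signals from 145 probe sets for genes typical of other tissues did not exceed, and lower values were raised to it before the ratio was taken. A fold for a gene at background on 1 array is therefore a lower bound. Of the 14 member probe sets, 9 were above this level on both arrays, 2 were above it in the control alone and 3 on neither array. Signals of different probe sets depend on their own probes and were not set against each other.

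Among the soluble effectors, Chil3, Ccl24 and F13a1 were each more than 2-fold lower on the CSF1 array, while Retnla was close to background, with a bound near the ratios of Il4ra and Clec10a. Of the 9 measured member genes, 7 had a log2 ratio below 0, 3 were at least 2-fold lower and none was 2-fold higher. Among all 10591 measured genes, 5259 had a log2 ratio below 0, 0.623% were at least 2-fold lower and 0.812% at least 2-fold higher. The members' median log2 ratio was -0.36, where that of all measured genes was 0.00.

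**Figure D1:**
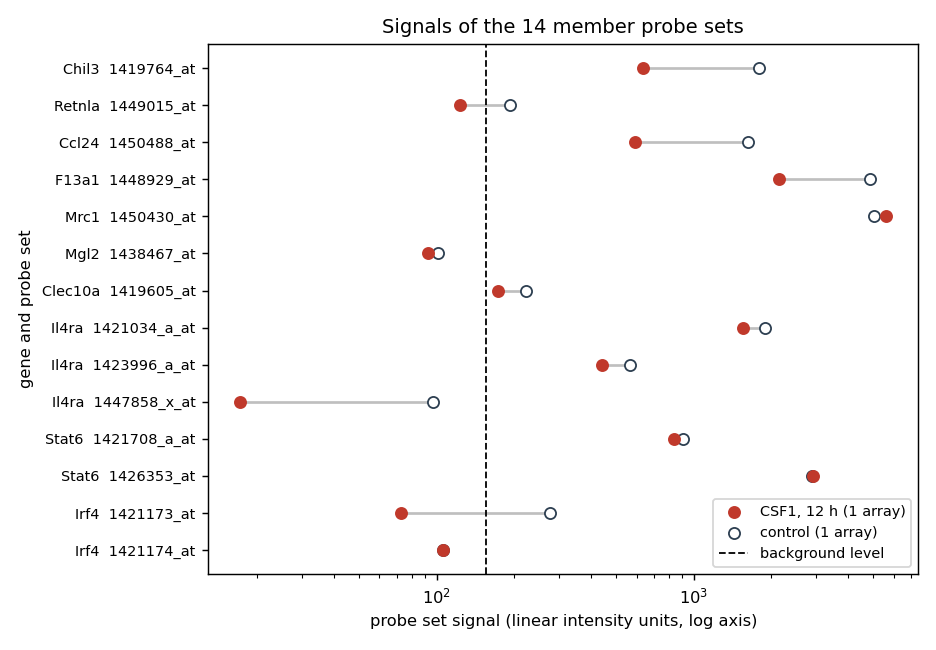
Signals of the 14 probe sets of the 10 genes, in linear intensity units on a log axis, with filled points for the CSF1 array, open points for the control array and a dashed line at the background level of 155 units. The points of Chil3, Ccl24 and F13a1 are widely separated with both above background, while those of Stat6 and Mrc1 nearly coincide.

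Chil3, a secreted chitinase-like protein that is among the most used marks of alternative activation in mice, had 634 units on the CSF1 array and 1803 units on the control array. It was 2.84-fold lower (log2 ratio -1.51) and took rank 9 from the lowest among the 16266 probe sets above background on both arrays, of which 0.682% were at least 2-fold lower. A further probe set is annotated to both Chil3 and its close relative Chil4 and so was not a member. It had 743 units on the CSF1 array and 1402 units on the control array, a log2 ratio of -0.92, so it pointed the same way and stayed within 2-fold. The probe set of Chil4 alone was below background on both arrays.

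Ccl24 (eotaxin-2), a chemokine that attracts eosinophils, had 591 units on the CSF1 array and 1635 units on the control array. It was 2.76-fold lower (log2 ratio -1.47), at rank 12 from the lowest. Its only probe set was well above background on both arrays.

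F13a1, which encodes the A subunit of coagulation factor XIII, a transglutaminase that cross-links fibrin, had 2145 units on the CSF1 array and 4851 units on the control array. It was 2.26-fold lower (log2 ratio -1.18), at rank 45 from the lowest. Centring on the hybridisation spikes gave it a log2 ratio of -0.88, under 2-fold, while all genes then had a median of 0.28. Large ratios were rarer at this level of signal: of the 3774 probe sets with a mean log2 signal of 11 or more, 0.265% were at least 2-fold lower. Among the 6257 probe sets with a mean log2 signal from 9 to 11, where Chil3 and Ccl24 lay, the share was 0.447%.

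Retnla, a small secreted resistin-like protein induced in mouse macrophages by interleukin-4, had 123 units on the CSF1 array and 193 units on the control array. The first value was under the background level and the second not far above it, so Retnla was at least 1.24-fold lower on the CSF1 array. With the stricter background level, the 95th percentile of the same genes at 192 units, the bound was -0.01 on the log2 scale. The pair of values therefore spans the range in which background is drawn.

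**Figure D2:**
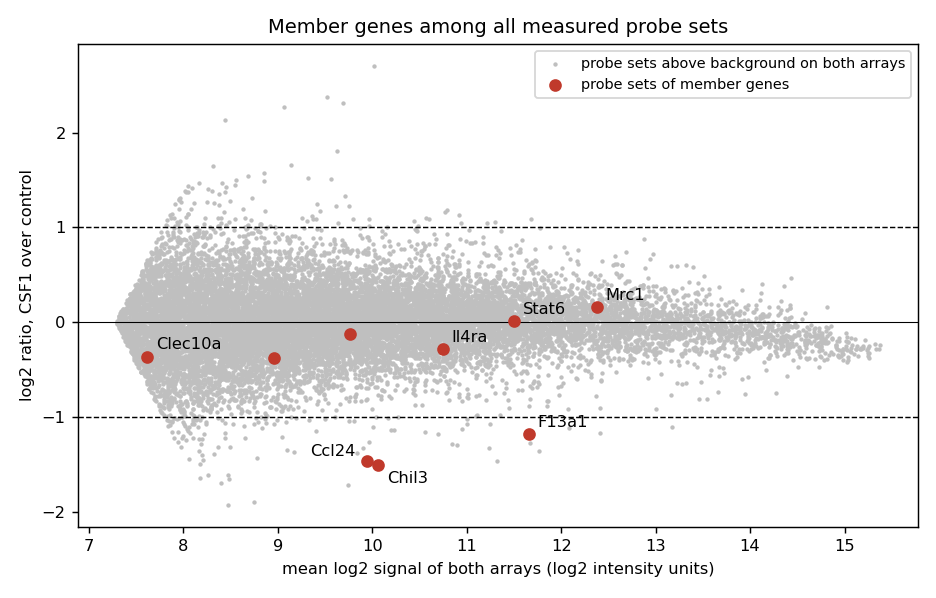
Log2 ratio of CSF1 over control (vertical axis) against the mean log2 signal of both arrays (horizontal axis) for the 16266 probe sets above background on both arrays, in grey, with the 9 such probe sets of member genes in red and dashed lines at 2-fold. Chil3, Ccl24 and F13a1 lie under the lower line at the edge of the cloud, and the other members lie inside it.

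No lectin receptor gene was 2-fold lower. Mrc1, the mannose receptor (CD206) that takes up mannosylated glycoproteins, had 5618 units on the CSF1 array and 5039 units on the control array, which is 1.11-fold higher (log2 ratio 0.16). Clec10a (Mgl1, CD301a), a galactose-type lectin, had 173 units on the CSF1 array and 222 units on the control array, which is 1.29-fold lower (log2 ratio -0.36). Both of its values were close to background, and with the stricter level its fold is only a bound. Mgl2 (CD301b), the related lectin gene, had 92.8 units on the CSF1 array and 101 units on the control array, so it was not above background on either and has no fold. The difference between Mrc1 and the soluble effectors is a difference between single probe sets on 2 arrays, and no test of it was possible.

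No probe set of the receptor chain or of Stat6 that was above background reached 2-fold between the arrays. For Il4ra, the chain that binds interleukin-4, the brighter probe set had 1557 units on the CSF1 array and 1895 units on the control array (log2 ratio -0.28). Its next probe set had 439 units on the CSF1 array and 569 units on the control array (log2 ratio -0.37). The mean of these was -0.33 ± 0.06 (SD, n = 2 probe sets), so they gave similar ratios. The third probe set of Il4ra was at 17.3 units on the CSF1 array and 96.5 units on the control array, below background on both.

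Stat6, the transcription factor that carries the interleukin-4 signal to the nucleus, had 2913 units on the CSF1 array and 2896 units on the control array on its brighter probe set, a log2 ratio of 0.01. Its other probe set had 836 units on the CSF1 array and 910 units on the control array, a log2 ratio of -0.12. The mean was -0.06 ± 0.09 (SD, n = 2 probe sets), within the disagreement between probe sets of one gene, which had a pooled SD of 0.28 over 3645 genes. That SD covers neither cultures nor animals. All probe sets of Il4ra and 1 of Stat6 carry names that mark them as possibly shared between transcripts.

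Irf4, a transcription factor that works downstream of the interleukin-4 receptor in macrophages and is also used by lymphocytes and dendritic cells, gave different results on its probe sets. One had 72.5 units on the CSF1 array and 275 units on the control array, so Irf4 was at least 1.77-fold lower. The other had 105.9 units on the CSF1 array and 105.8 units on the control array, below background on both. With no background level the first probe set had a log2 ratio of -1.93, and with the stricter one its bound was -0.52, so the size of the Irf4 difference rests on where background is set. Counted at 1.5-fold, Irf4 joined Chil3, Ccl24 and F13a1 as the fourth lower member of 9, where 4.88% of all measured genes were at least 1.5-fold lower.

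**Figure D3:**
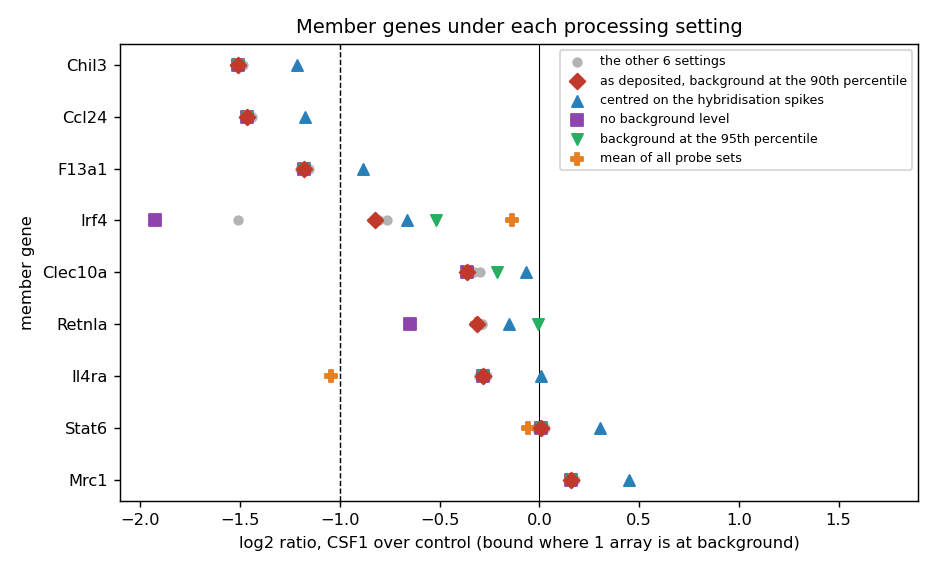
Log2 ratio of CSF1 over control (horizontal axis) of the 9 measured member genes (rows) under 11 processing settings, with coloured marks for 5 of them and grey points for the others. Chil3 and Ccl24 stay left of the dashed line at 2-fold under every setting shown, F13a1 crosses it only with centring on the hybridisation spikes, and Irf4 spreads from -1.93 to -0.14.

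Other genes of the pathway were taken from a list of 42 chosen by role, with earlier results of these data known. The list of classical activation genes was made in the same way. Of the 42 genes, 38 had a probe set of their own and 25 were measured. Of these 25, 18 had a log2 ratio below 0, 2 were at least 2-fold lower and none was 2-fold higher, with a median of -0.28. Among all 10591 measured genes, 5259 were below 0 and 0.623% at least 2-fold lower. The median of the list was -0.08 after quantile normalization and 0.00 after centring on the spikes, where all genes had a median of 0.28. The 357 probe sets with a mean log2 signal of 14 or more had a median log2 ratio of -0.18 as deposited, and the 6257 from 9 to 11 had one of 0.01.

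Neither ligand gene was measured: Il4 had 28.8 units on the CSF1 array and 40.6 units on the control array, and Il13 had 21.0 units on the CSF1 array and 30.2 units on the control array. Il13ra1, the chain that pairs with Il4ra in the receptor used by both cytokines, had 1170 units on the CSF1 array and 1935 units on the control array. Its log2 ratio was -0.73 on that probe set and averaged -0.56 ± 0.22 (SD, n = 4 probe sets) where both arrays were above background. All 4 were lower without reaching 2-fold. A further probe set of Il13ra1 was below background on the CSF1 array, at 48.9 units, and had 197 units on the control array. It was at least 1.27-fold lower. Il13ra2, a decoy receptor for interleukin-13, was above background on the CSF1 array only, at 186 units, at least 1.20-fold higher. Jak3, a kinase of the shared gamma chain, was at background on the CSF1 array and had 228 units on the control array, at least 1.47-fold lower. Jak2 had a log2 ratio of -0.43, while Jak1 and Tyk2 were at 0.01 and 0.00.

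Of the inhibitors, 3 of 4 were measured. Socs3, which blocks cytokine receptor signalling, had 791 units on the CSF1 array and 1741 units on the control array, 2.20-fold lower, and its log2 ratios averaged -1.15 ± 0.11 (SD, n = 3 probe sets). After centring on the spikes its log2 ratio was -0.84, under 2-fold. Cish, another member of that family, was 1.51-fold lower, and the phosphatase gene Ptpn6 was 1.26-fold higher. Socs1, an inhibitor that interleukin-4 induces, was below background on both arrays.

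The transcription genes of the list showed no common direction, with 3 of 7 measured members above 0, a median of -0.01 and none past 2-fold. Myc was 1.32-fold higher, Batf3 1.29-fold higher, Klf4 1.23-fold lower and Egr2 1.22-fold lower. Cebpb had a log2 ratio of -0.09 on its brighter probe set and of -1.01 on its other one, a disagreement larger than its own mean difference of -0.55 ± 0.65 (SD, n = 2 probe sets). Kdm6b, a histone demethylase that acts on Irf4 in mice, was not above background on its brightest probe set.

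Among 19 further genes that interleukin-4 induces in macrophages, 9 were measured and all 9 had a log2 ratio below 0 on their brightest probe set, with a median of -0.32. With all probe sets averaged 8 of 9 were below 0, and with probe sets marked as shared left out 7 of 8 were. Several of these genes lie at a mean log2 signal of 14 or more, where 317 of 357 probe sets were below 0. Slc7a2, an arginine transporter, had 1525 units on the CSF1 array and 3825 units on the control array, 2.51-fold lower, and averaged -1.23 ± 0.17 (SD, n = 3 probe sets). Tgm2, a tissue transglutaminase related to F13a1, had 12095 units on the CSF1 array and 20475 units on the control array, 1.69-fold lower, and averaged -0.75 ± 0.22 (SD, n = 5 probe sets). Cdh1, E-cadherin, was at background on the CSF1 array and had 293 units on the control array, at least 1.89-fold lower. These 3 genes had the largest ratios of the list.

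Mmp12, a macrophage elastase, had 31201 units on the CSF1 array and 39253 units on the control array, a log2 ratio of -0.33. Arg1, the arginase used as a defining gene of alternative activation, had 30700 units on the CSF1 array and 38212 units on the control array, a log2 ratio of -0.32. Both had a mean log2 signal of 14 or more, and after quantile normalization both were at -0.06. The macrophage genes Cd68 and Lyz2 lay at nearly the same signals, 28929 and 29561 units on the CSF1 array and 38569 and 38158 units on the control array, near the top of the scale. The SD of log2 ratios was 0.15 at a mean log2 signal of 14 or more and 0.42 under 9. Saturation was not tested, so the sizes of the Arg1 and Mmp12 differences were not set against those of Chil3 and Ccl24. Cd36, a scavenger receptor, was at -0.06 on its brightest probe set and averaged 0.27 ± 0.40 (SD, n = 3 probe sets), and it turned to 0.18 after quantile normalization.

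Genes of classical activation, the state driven by interferon-gamma and bacterial products, had a median log2 ratio of 0.28. Of 12 measured, 8 were above 0, 2 were at least 2-fold higher and 1 was at least 2-fold lower. For comparison, 5332 of all 10591 measured genes were above 0, and their median was 0.00. The shares of all measured genes past 2-fold were 0.812% upward and 0.623% downward. Cxcl9, a chemokine for T cells, had 634 units on the CSF1 array and 224 units on the control array, 2.83-fold higher. Cxcl10, which acts on the same receptor, had 440 units on the CSF1 array and 205 units on the control array, 2.15-fold higher. Ptgs2, the inducible cyclooxygenase, had 153 units on the CSF1 array, under background, and 364 units on the control array, at least 2.34-fold lower. This was under 2-fold in 3 alternatives, with log2 ratios of -0.92 at the stricter background level, -0.96 after centring on the spikes and -0.89 with all probe sets averaged. Cxcl9 was at least 0.73 on the log2 scale with all probe sets averaged, also under 2-fold. The cytokine gene Il1b was 1.77-fold lower. The nitric oxide synthase gene Nos2 and Il12b were below background on both arrays.

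**Figure D4:**
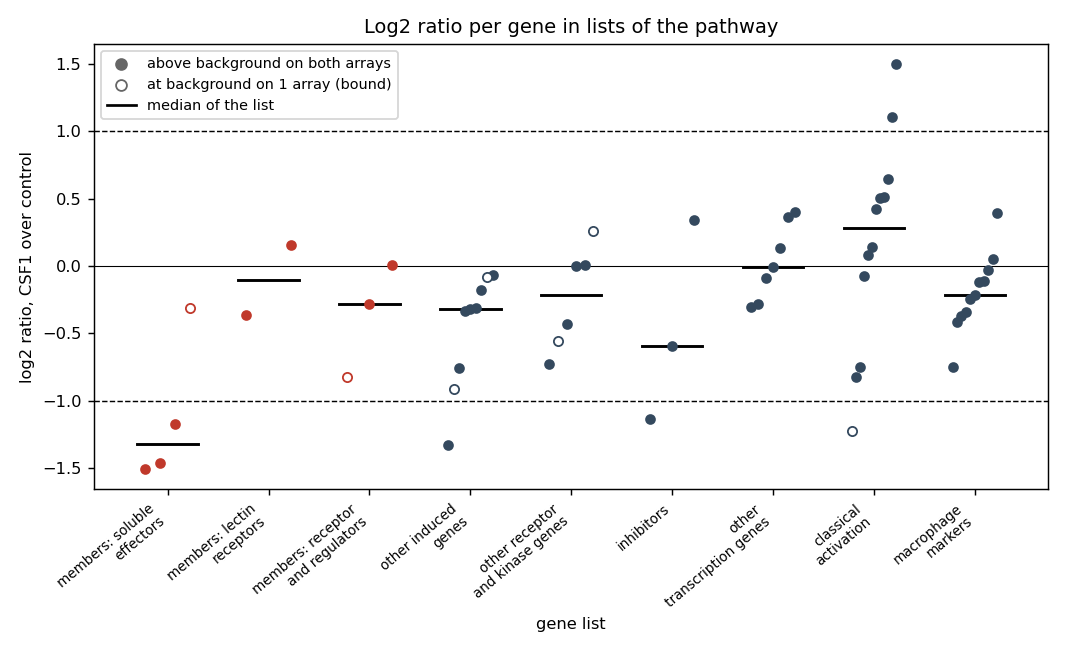
Log2 ratio of CSF1 over control (vertical axis) for each measured gene of the member groups (red) and of other lists of the pathway, classical activation and macrophage markers (dark), with open points for bounds, black bars for list medians and dashed lines at 2-fold. The soluble effectors have a median of -1.32, the other induced genes of -0.32, and classical activation genes of 0.28.

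Markers of other cells were read beside these results, since in such bulk samples fewer cells of a type and less RNA per cell cannot be told apart. Macrophage markers were present, with 11 of 11 listed genes with a probe set of their own measured. Their summed signal was 160157 units on the CSF1 array and 190525 units on the control array. The median log2 ratio of these markers was -0.21. It was 0.08 after centring on the spikes, where all genes had a median of 0.28. Natural killer cell markers moved with the soluble effectors: 5 of 6 were measured, all 5 were below 0, the median was -0.82, and the sum was 2693 units on the CSF1 array and 7013 units on the control array. Mesothelial and fibroblast markers moved the other way, with 7 of 9 measured, all 7 above 0 on their brightest probe set, a median of 0.32, and a sum of 64675 units on the CSF1 array and 51009 units on the control array. With all probe sets averaged, 4 of 7 measured were above 0 and the median was 0.16. Most of the natural killer cell sum was Gzmb, at 1543 units on the CSF1 array and 4266 units on the control array. Gzma followed, at 472 units on the CSF1 array and 1554 units on the control array. Both were at least 2-fold lower, while Prf1, Klrd1 and Eomes were lower without reaching 2-fold. The defining markers Msln, Krt19 and, for natural killer cells, Ncr1 were below background on both arrays. The part of these cells in the lower signals of Chil3, Ccl24 and F13a1 was not tested.

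Markers of eosinophils, the cells that respond to Ccl24, were mostly not detected: 1 of 5 was measured, Siglecf, at least 1.13-fold lower, with Prg2, Epx, Ccr3 and Il5ra below background on both arrays. The list summed to 311 units on the CSF1 array and 331 units on the control array. For dendritic cells, which also use Irf4, 2 of 8 markers were measured, with a sum of 7312 units on the CSF1 array and 8739 units on the control array, and Flt3, Xcr1, Ccr7 and Cd209a were below background on both. Itgax alone made up most of this sum, at 6854 units on the CSF1 array and 8004 units on the control array. On its brightest probe set the dendritic cell factor Zbtb46 was at background on the CSF1 array and had 318 units on the control array. It was at least 2.04-fold lower there, while its other probe sets were below background on both arrays and did not share a direction. B-cell markers had 3 of 6 measured and summed to 646 units on the CSF1 array and 824 units on the control array, with Cd79a and Ms4a1 below background on both arrays. The 3 measured genes did not share the direction of the sum: Pax5 and Fcmr were above 0, Cd79b was below 0 and the median was 0.17. The part of these cells in the Irf4 difference was not tested.

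Markers of T cells and innate lymphoid cells differed little in sum, at 17462 units on the CSF1 array and 17704 units on the control array, with 4 of 7 measured and Cd3e, Cd4 and Gata3 below background on both. Il7r alone made up most of this sum, at 16361 units on the CSF1 array and 16630 units on the control array. The other measured markers, Cd3d, Cd3g and Cd8a, were above background on both arrays on their brightest probe sets. Their log2 ratios were 0.35, -0.04 and -0.18. Mast cell and basophil markers summed to 1969 units on the CSF1 array and 2086 units on the control array, with 3 of 7 measured. Cpa3 made up most of this sum, at 1236 units on the CSF1 array and 1421 units on the control array. Tpsb2 was above background on both arrays and 1.35-fold lower, and Kit was above background on the CSF1 array only. Mcpt4, Mcpt8, Ms4a2 and Fcer1a were below background on both. Neutrophil markers summed to 6464 units on the CSF1 array and 6371 units on the control array, with 2 of 6 measured and S100a9, Ngp, Camp and Mpo below background on both. Most of that sum was S100a8, while the other measured marker, Csf3r, had 623 units on the CSF1 array and 1282 units on the control array, 2.06-fold lower. Markers of resident peritoneal macrophages summed to 4743 units on the CSF1 array and 4144 units on the control array, with 6 of 8 measured, 4 of them above 0. Gata6 and Icam2 went against the sum, with log2 ratios of -0.22 and -0.45. Signal of 3' over 5' control probe sets was 1.40 on the CSF1 array and 1.03 on the control array for Gapdh, and 1.38 on the CSF1 array and 1.35 on the control array for Actb, so this sign of RNA quality differed for Gapdh.

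**Figure D5:**
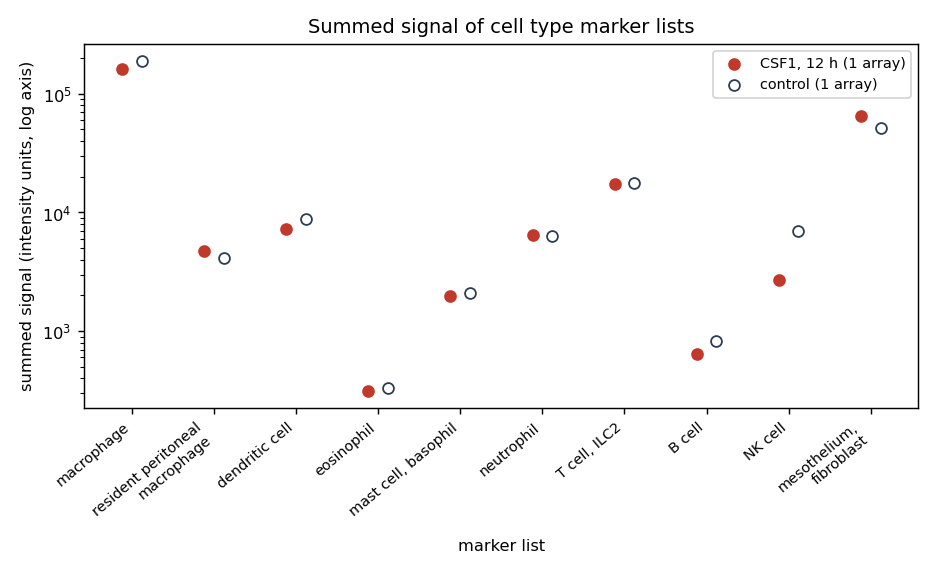
Summed signal of each cell type's marker genes, in intensity units on a log axis, with filled points for the CSF1 array and open points for the control array. The widest separation is that of the natural killer cell list, at 2693 units on the CSF1 array and 7013 units on the control array.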

How the data were processed

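The authors deposited linear intensity values from 2 Affymetrix Mouse Genome 430 2.0 arrays, analysed by the authors with GeneSpring 6.2 per the labels' design text. How probes were summarised is not stated in those texts, and no detection calls were used. Without the top and bottom 2% of values, both arrays averaged 500 units, so they had been scaled to a common level. Groups came from the labels.

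Gene symbols came from GEO's platform annotation, in which 34958 probe sets carried 1 symbol, 932 several and 9211 none. No further scaling was applied before taking log2. The background level was the 90th percentile of the signals of 145 probe sets from 86 of 97 listed genes typical of other tissues; Mbp, among them, reached 770 units on the CSF1 array and 918 units on the control array, so they were not all silent. The brightest probe set (mean log2 signal) stood for a gene, which was measured if either array exceeded background. A 2-fold ratio counted as called. With 1 array per group no test was run, and precision is limited by the number of arrays. The calculation was tested on simulated data, with large changes placed in probe sets well above background. That did not test the recovery of ratios near 2-fold or of changes at signals close to background.

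The text names all 10 members and, of the pathway and classical activation lists, genes past 2-fold and those with the 4 largest ratios. Arg1, Cd36, Cebpb, Jak1, Tyk2 and the genes at background were named after their values were seen. Members and lists were chosen with earlier results of these data known. Alternatives tried were loess (span 0.3) and quantile normalization, centring on the median or on 18 hybridisation spikes, other background levels, all probe sets averaged, probe sets not marked as shared, folds of 1.5 and 3, and a pseudocount of 16. The work used matplotlib 3.10.9, statsmodels 0.14.6, pandas 2.3.3, numpy 2.4.6, scipy 1.17.1 and Python 3.11.15.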

Additional observations from a re-analysis of the deposited data

How the results depend on the processing

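The count of 3 members at least 2-fold lower was between 2 and 4 under the 11 alternatives other than the 3-fold threshold, at which it was 0, since the largest of the 3 ratios is 2.84-fold. No member was 2-fold higher under any alternative run. The count was 2 after centring on the hybridisation spikes, which put F13a1 at -0.88 and the median of all genes at 0.28; relative to that median 3 members were 2-fold lower. It was 4 with background set to the median signal or left out, and at a threshold of 1.5-fold, each of which added Irf4. It was also 4 with all probe sets averaged, where Il4ra was added at -1.05 through a probe set below background on both arrays. With background at the median signal or left out, all 10 members counted as measured. Of all measured genes, 1.54% were then at least 2-fold lower with the median signal and 10.6% without a background level. The share was 1.31% with all probe sets averaged and 0.623% as deposited, and 4.88% were lower at 1.5-fold. The median over members lay between -0.59 and -0.15. The sign of Chil3, Ccl24 and F13a1 was negative under all 11 settings that give a ratio. Il4ra was at 0.01 and Stat6 at 0.30 with spike centring, so the signs of these small ratios depend on the scaling.

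Over all genes, 86 were 2-fold higher and 66 lower, against 296 and 18 with spike centring, 195 and 197 with background at the median signal, 1743 and 1925 without one, 97 and 113 with all probe sets averaged, 573 and 517 at 1.5-fold, and 8 and 5 at 3-fold. The genes measured numbered 10591 as deposited and 10566 with spike centring. They numbered 12759 with background at the median signal, 18194 without one and 8651 with all probe sets averaged. Low signal limits Retnla, Clec10a, Irf4 and Mgl2. No replicate was left out and no paired analysis was possible because each group has 1 array.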
